A study of Papio anubis with 40 samples.

Results

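The microRNAs followed here, all best known from the nervous system, were measured in the blood plasma of baboons in which endometriosis had been induced: miR-9-5p, miR-9-3p, miR-124-3p, miR-128-3p and miR-132-3p. They were chosen by name, and each has its own row in the deposited table, so they make up 5 of its 2731 rows and 5 of the 689 rows with a count in any library. The samples were 40 plasma libraries of 0.5 mL each from 8 olive baboons (Papio anubis), every animal bled before inoculation (month 0) and again 3, 6, 9 and 15 months after menstrual tissue had been placed in its peritoneal cavity. Each month therefore holds 8 libraries from the same 8 animals (PA8001, PA8003, PA8872, PA8873, PA8912, PA8914, PA8915 and PA8835), labelled as untreated. All groups share the induction except month 0, and no uninoculated animal was analysed here, so time since inoculation cannot be told apart from age of the animal or age of the sample. The labels say plasma, while the description of the series says serum.

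MicroRNAs are short RNAs that pair through their seed with target messages and lower their output. Neurons and their precursors rely on a small set of them. miR-124 is the most abundant microRNA of mature neurons and represses PTBP1, a splicing factor of non-neuronal cells. miR-9 is made by neural progenitors and neurons, its 5p arm targets the repressor REST and its 3p arm the REST partner CoREST, and in human monocytes and neutrophils it is also made after inflammatory signals. miR-128 is abundant in brain and restrains neuronal excitability in mice, and blood cells make it too. miR-132 is induced by CREB in active neurons, shares a transcript and a seed with miR-212, and is also made by endothelium. In plasma the source of such copies is not known from the libraries, and more cells shedding a microRNA cannot be told apart from more of it shed per cell.

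The 5 microRNAs differed greatly in level. Levels are given in CPM, counts relative to the library total after scaling by its TMM factor. miR-128-3p had a mean of 493 ± 102 CPM (SD over 40 libraries) and ranked 76th of the 318 rows that were counted often enough to be tested. miR-9-3p had 173 ± 161 CPM and ranked 110th, and miR-9-5p had 63.0 ± 64.3 CPM and ranked 148th. miR-132-3p, at 2.62 ± 2.75 CPM, was the lowest of all 318 rows tested. miR-124-3p, the microRNA that most sharply marks neurons, did not pass the filter on low counts: its 40 libraries held 42 counts in all. Its listed counts were thus at or near 0. The word neural describes what the set is known for, and the source of the copies was not tested. How well each sequence was ligated to its adapters was not measured, so the order of levels between microRNAs is that of the libraries.

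Total counts ran from 696873 to 5824111 per library, with 266 to 492 rows counted. The value 1 does not occur anywhere in the table, and 2 was the smallest count above 0 in each of the 40 libraries. A listed 0 therefore need not mean that no read was found, and no upper limit was set from it. A haemolysis index was taken for each library as log2 CPM of the red cell microRNA miR-451a minus that of miR-23a-3p/23b-3p. It was 0.01 ± 1.06 (SD, n = 8) at month 0 and -0.82 ± 1.47 at month 15, and log2 total count was 20.28 ± 0.55 and 20.97 ± 0.71. Neither paired difference passed an exact two-sided sign-flip permutation test over the 8 baboons (adjusted p = 0.375 and 0.229). The index falls with less miR-451a and also with more miR-23a-3p/23b-3p. From month 0 to month 15 log2 CPM changed by -0.38 ± 1.84 for miR-451a and by 0.46 ± 1.00 for miR-23a-3p/23b-3p (mean paired difference, SD, n = 8). The month 15 library of PA8872 stood apart: its index of -3.43 was the lowest of the 40, and its summed level of 7 red cell microRNAs, 98065 CPM, was the lowest as well. Month 15 changes are given with and without it.

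The main question was whether any of these microRNAs differed between a month after inoculation and month 0. None passed the threshold. Each comparison came from a single edgeR quasi-likelihood fit of all 318 rows in the 40 libraries, with month and baboon as terms. Adjusted p is the Benjamini-Hochberg value over the whole tested table. Of the 4 neural microRNAs tested, 0 passed an adjusted p of 0.05 at month 3, 0 at month 6, 0 at month 9 and 0 at month 15. The share of all rows that passed was 0% at months 3, 6 and 9 and 4.09% (13 of 318) at month 15. In the test of all 4 months together 0 of the 4 passed, against 0.943% of all rows, and for late against early (mean of months 9 and 15 against that of months 3 and 6) 0 passed, against 0%. With the month 15 library of PA8872 left out, 4 of 325 rows passed at month 15 and again 0 of the neural microRNAs. At an unadjusted p under 0.05 edgeR had 1 of the 4 at month 6 (miR-132-3p), 1 at month 15 and 1 over all months (both miR-9-5p), and none at months 3 and 9. Of all rows, 3.46% lay under that unadjusted value at month 6, 12.6% at month 15 and 9.12% over all months. The signs were mixed, with 3 of 4 above 0 at months 3, 6 and 15 and 0 of 4 at month 9. Their median log2 change was 0.02, 0.25, -0.35 and 0.32 at months 3, 6, 9 and 15, beside 0.08, 0.10, 0.05 and 0.11 over all 318 rows. Their median at month 15 was 0.08 without the month 15 library of PA8872, beside 0.06 over all rows.

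**Figure D1:**
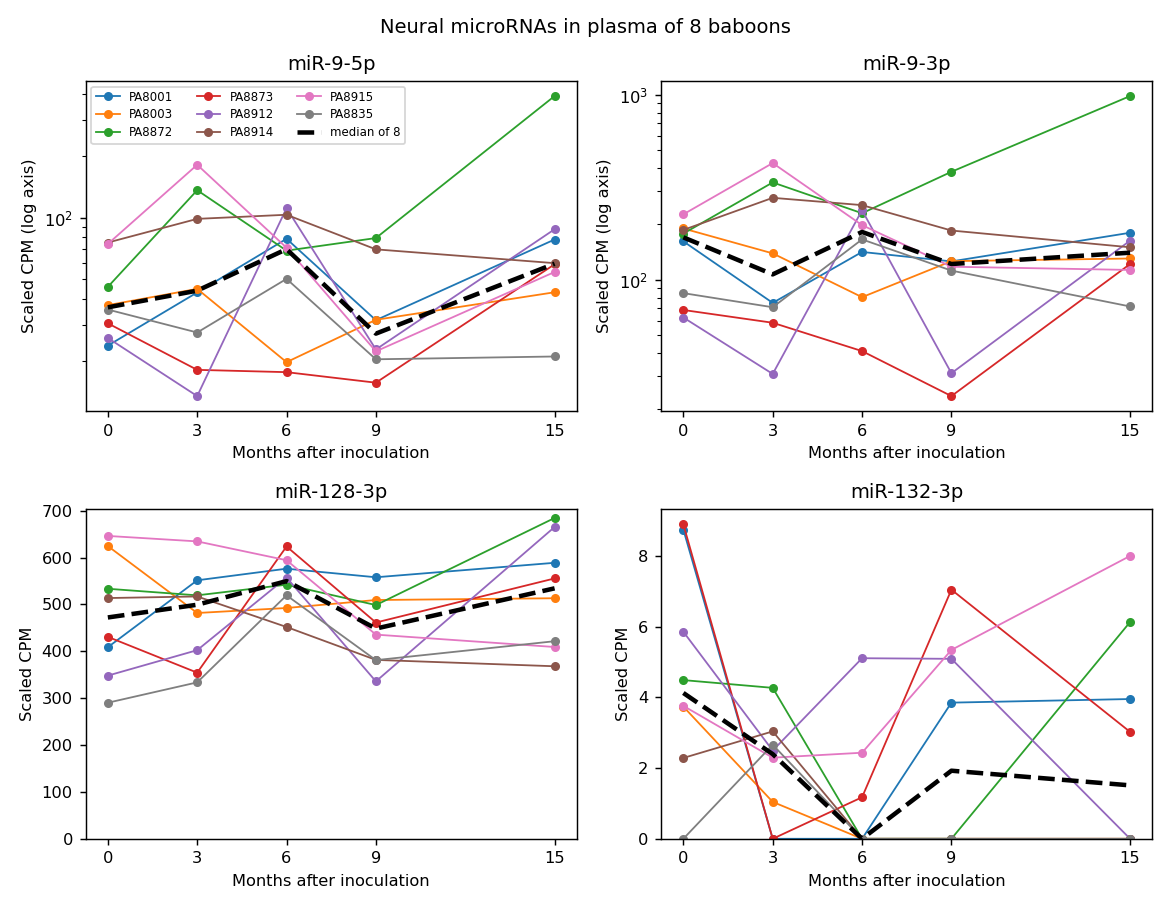
Scaled CPM of the 4 tested neural microRNAs against months after inoculation, with 1 coloured line per baboon and a dashed black line for the median of the 8; the miR-9 panels have a log axis. The month 15 library of PA8872 tops both miR-9 panels at 391 and 984 CPM, while miR-128-3p stays between 290 and 685 CPM and miR-132-3p falls to 0 in many libraries.

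miR-9-5p had the smallest p of the set over all months (0.0306, adjusted p = 0.464 by edgeR). At month 0 its lowest level was 23.8 CPM, its median 36.5 and its highest 75.5. It ran from 13.5 to 181 CPM (median 44.0) at month 3 and from 17.6 to 111 CPM (median 70.1) at month 6. At month 9 the range was 15.7 to 79.4 CPM with a median of 27.2, the lowest median of the 5 months. At month 15 it was 21.0 to 391 CPM with a median of 59.5. The ranges of all 5 months overlap, and the high end at month 15 is 1 library, that of PA8872.

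Against month 0 the log2 change of miR-9-5p was 0.40 at month 3 (SE 0.397), 0.55 at month 6 (SE 0.401) and -0.39 at month 9 (SE 0.398). At month 15 it was 0.90 (SE 0.404, 95% interval 0.08 to 1.72, unadjusted p = 0.0327, adjusted p = 0.336 by edgeR), a fitted 1.87-fold difference with the level higher in 5 of 8 baboons. Mean levels were 43.6 ± 20.5 CPM at month 0 and 99.3 ± 120 CPM at month 15 (SD, n = 8 each). Without the month 15 library of PA8872 the month 15 mean was 57.6 ± 21.9 CPM (n = 7) and the log2 change 0.49 (unadjusted p = 0.188 by edgeR). With the haemolysis index as a covariate the log2 change was 0.40 (unadjusted p = 0.289), and with log2 total count it was 0.60 (unadjusted p = 0.171). The estimate was smaller with each of these than without, and the part of haemolysis or depth in the difference was not tested beyond that.

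The widest gap of miR-9-5p lay between months 9 and 15, a pair picked after its values were seen. The level was higher at month 15 in 7 of 8 baboons, PA8914 being the exception, with a log2 difference of 1.29 (SE 0.401, 95% interval 0.47 to 2.10, adjusted p = 0.120 by edgeR). In that comparison 1.26% of all rows passed. The adjusted p was 0.0471 with library totals alone as scaling, 0.0412 with no filter on low counts and 0.0495 with DESeq2, and 0.0619 to 0.537 in the other 17 alternatives. Of all rows, 4 passed in the fit reported and 0 to 13 under these alternatives, with 13 for library totals alone. The median log2 difference of all rows ran from -0.05 to 0.38 over the alternatives. Without the month 15 library of PA8872 the difference was 0.86 (adjusted p = 0.418), and with the haemolysis index as a covariate 0.70 (adjusted p = 0.537). Liver microRNAs moved the other way: of the 4 liver rows tested, 4 were above 0 at month 9 against month 0 (median log2 change 0.94) and 0 were above 0 at month 15 against month 9 (median -1.17), with none passing. Platelet microRNAs moved the same way as miR-9-5p: of the 8 platelet rows tested, 7 lay below 0 at month 9 against month 6 (median -0.46) and 7 above 0 at month 15 against month 9 (median 0.47), with none passing in either. The leukocyte list shares miR-150-5p with the platelet list, so the 2 are not separate. Of the 8 leukocyte rows tested, 8 lay below 0 in the first comparison (median -0.33). In the second the leukocyte rows were mixed, with 5 above 0 and 3 below (median 0.27, lowest -0.40). None passed in either. Of all 318 rows, 181 lay below 0 in the first (median -0.06) and 172 above 0 in the second (median 0.08). At month 15 against month 0, 7 of the 8 platelet rows lay above 0 (median 0.47) and 1, miR-126-3p, passed (adjusted p = 0.0448 by edgeR, 0.0708 without the month 15 library of PA8872). Of the 8 leukocyte rows, 4 lay above 0 (median -0.01), 1 passed as higher and 2 as lower, and this list was not read without that library. Of all rows, 4.09% passed there. The part of liver, platelet or leukocyte RNA in the miR-9 values was not tested. Between months 6 and 9 the log2 difference of miR-9-5p was -0.93 (SE 0.401, lower in 6 of 8 baboons, adjusted p = 0.733). Over the 10 possible pairs of months and the 4 microRNAs, 0 of 40 comparisons passed, against 0.535% of the comparisons of all rows. An unadjusted p under 0.05 was found in 5 of the 40, against 5.75% over all rows and 15.4% for month 15 against month 9, where 2 of the 5 lie. No neighbouring months in the order of levels differed at the adjusted threshold.

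miR-9-3p comes from the other strand of the same hairpins. Its range was 62.5 to 226 CPM at month 0 (median 169), 31.0 to 427 CPM at month 3 (median 107) and 41.2 to 253 CPM at month 6 (median 181). It was 23.5 to 383 CPM at month 9 (median 122) and 71.7 to 984 CPM at month 15 (median 140). The ranges overlap throughout, and the month 15 median lies below that of month 0 while the mean, pulled by PA8872, lies above it, at 239 ± 303 against 144 ± 63.0 CPM (SD, n = 8).

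Its log2 changes from month 0 were 0.03 at month 3, 0.27 at month 6, -0.32 at month 9 and 0.47 at month 15, with SE of 0.380 to 0.385 and adjusted p of 0.609 or more by edgeR. The value at month 3 turned negative under each of the 3 other scalings (-0.066, -0.0066 and -0.17). At month 15 the level was higher in 4 of 8 baboons and lower in 4. Without the month 15 library of PA8872 the month 15 mean was 133 ± 35.6 CPM (n = 7) and the log2 change 0.12.

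**Figure D2:**
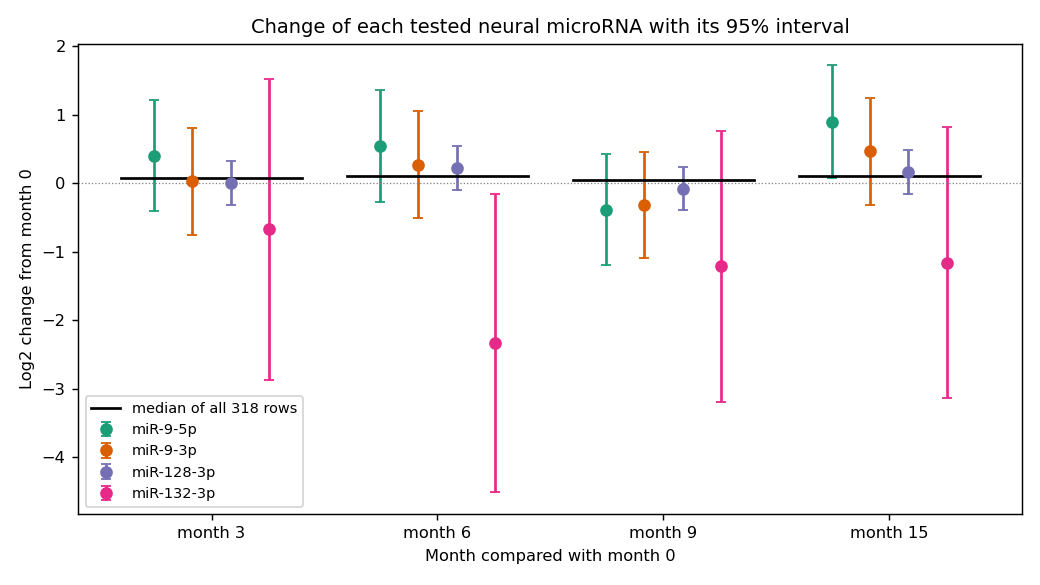
Log2 change of each tested neural microRNA from month 0 by month, with points for the edgeR estimate, bars for its 95% interval and black lines for the median of all 318 rows. The intervals of miR-128-3p are narrow and span 0 at every month, those of miR-132-3p are the widest, and the only ones that leave out 0 are miR-132-3p at month 6 and miR-9-5p at month 15, before adjustment.

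The 3p arm outnumbered the 5p arm in 40 of 40 libraries. In all, 14705 counts of miR-9-3p stood against 5717 of miR-9-5p, so the 5p arm made up 28.0% of the counts of both. The share ran from 12.8% in the month 0 library of PA8001 (exact Clopper-Pearson 95% interval 7.91 to 19.3%, 148 counts of both arms) to 42.1% in the month 9 library of PA8912 (34.4 to 50.2%), with a median of 28.2%. These intervals cover counting error only and treat counts as independent molecules. Within PA8001 the share was highest at month 3, at 36.5% (27.7 to 46.0%), an interval that does not meet the one at month 0. Both libraries were picked as extremes, so this gap does not show a change with month. In PA8914, by contrast, the 5 libraries lay between 26.2 and 28.9%. Both arms are scaled by the same library total, which cancels in their ratio.

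Averaged by month the 5p share was 24.2 ± 6.79% at month 0, 28.5 ± 4.06% at month 3, 27.4 ± 5.27% at month 6, 24.8 ± 10.8% at month 9 and 29.4 ± 4.13% at month 15 (SD, n = 8). The log2 ratio of the 5p to the 3p arm changed from -1.68 ± 0.58 at month 0 to -1.26 ± 0.28 at month 15. That paired difference was 0.42 ± 0.60, higher in 6 of 8 baboons, and did not pass an exact two-sided sign-flip permutation test (p = 0.0781, adjusted over the 4 months p = 0.312). At months 3, 6 and 9 the differences were 0.36, 0.28 and 0.02 with adjusted p of 0.422, 0.448 and 0.961 by the same exact test. Without PA8872 the month 15 difference was 0.39 ± 0.64, higher in 5 of 7 baboons (exact p = 0.156). The smallest p that 8 pairs allow is 0.00781.

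**Figure D3:**
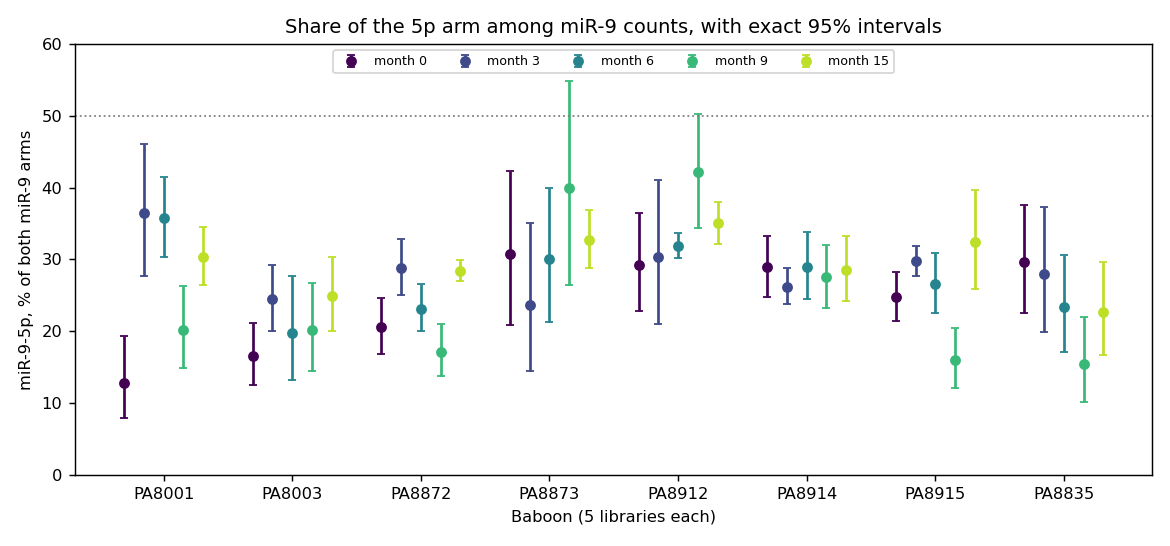
Share of miR-9-5p among the counts of both miR-9 arms, in %, for each of the 5 libraries of each baboon, coloured by month, with exact 95% intervals; the dotted line is at 50%. Every point lies below 50%, and the libraries of PA8914 lie close together while those of PA8001 spread from 12.8 to 36.5%.

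For both miR-9 arms the share of variation between animals lay above the median of all rows. Of the sum of squares of log2 CPM of miR-9-3p, 56.7% lay between baboons, 4.95% between months and 38.3% in the remainder. Its share between baboons ranked 32nd of the 318 rows, whose median was 31.7%. For miR-9-5p the share between baboons was 43.6% (rank 85), with 13.5% between months. The median share between months over all rows was 7.38%. These shares are descriptions and were not tested. They are not adjusted for the number of baboons and months, so unrelated variation also adds to each. PA8872, PA8914 and PA8915 had the 3 highest mean log2 levels of both arms, and PA8873 had the lowest of both. For miR-9-3p the mean over the 5 libraries was 422 ± 325 CPM in PA8872, 216 ± 128 in PA8915 and 210 ± 53.0 in PA8914, against 62.7 ± 37.2 in PA8873 (SD, n = 5). Before inoculation PA8914 and PA8915 had the highest miR-9-5p, at 75.5 and 74.3 CPM, while PA8872 stood at 45.9 CPM. For miR-9-3p the order at month 0 was another: PA8915 had 226 CPM, PA8003 189, PA8914 186 and PA8872 178.

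**Figure D4:**
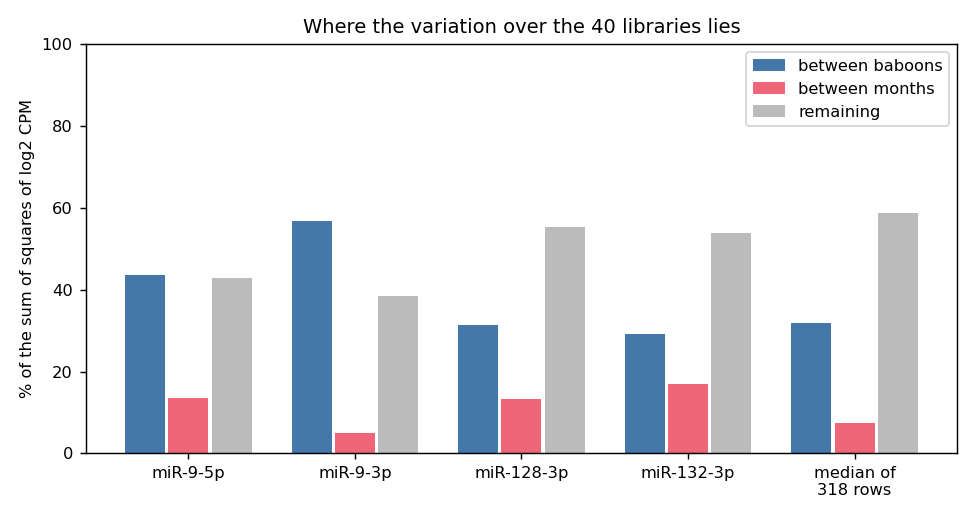
Share of the sum of squares of log2 CPM that lies between baboons, between months and in the remainder, in %, for the 4 tested neural microRNAs and as the median of each share over 318 rows. miR-9-3p has the largest share between baboons of the 4, at 56.7%. The largest share between months, 16.9%, is that of miR-132-3p, a row at 0 in 16 of 40 libraries. The shares are not adjusted for the number of baboons and months.

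The animals did not peak together. In PA8872 and PA8873 both miR-9 arms were highest at month 15, in PA8912 and PA8835 at month 6 and in PA8915 at month 3. In PA8001, PA8003 and PA8914 the arms peaked at different months. PA8915 fell from 181 CPM of miR-9-5p at month 3 to 22.3 CPM at month 9, an 8.11-fold range. PA8912 went from 13.5 CPM at month 3 to 111 CPM at month 6 and back to 22.8 CPM at month 9. In PA8914 the highest miR-9-5p level was 1.72 times the lowest. Marker levels moved with some of these libraries. The month 6 library of PA8912 was the deepest of the 40 and had the lowest summed level of 6 liver microRNA rows (2276 CPM), and the month 15 library of PA8872 had the second lowest (3318 CPM). The summed leukocyte list stood at 13142 CPM in the month 6 library of PA8912, rank 4 of 40, and at 8691 CPM in the month 15 library of PA8872, rank 29. In the peak libraries of PA8873 at month 15 and PA8915 at month 3 the leukocyte list ranked 21 and 6 and the liver list 22 and 35. In that of PA8835 at month 6 the leukocyte list ranked 22 and the liver list 24. The summed platelet list ranked 2 of 40 in the peak library of PA8872 and 3 in that of PA8873 at month 15. It ranked 5 in that of PA8915 at month 3, and 7 and 4 in those of PA8912 and PA8835 at month 6. In the other animals the platelet list was not always high. At the miR-9-5p peak it ranked 25 in PA8001 (month 6), 31 in PA8003 (month 3) and 14 in PA8914 (month 6). At the miR-9-3p peak the platelet list ranked 6 in PA8001 (month 15), 27 in PA8003 (month 0) and 13 in PA8914 (month 3). Its highest sum, however, was in the month 15 library of PA8912, where miR-9-5p stood at 87.7 CPM, below the month 6 level of that animal. The part of these measures in the peaks was not tested.

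Within baboons, both miR-9 arms were lower where the haemolysis index was higher. With each baboon's mean subtracted, miR-9-5p had a Pearson r of -0.61 with the index over the 40 libraries (Spearman rho -0.57). The permutation p, from 100000 shuffles of months within baboons, was 0.00027, or 0.00162 adjusted over the 18 relations computed. Without the 2 libraries farthest from the median index r was -0.46. miR-9-3p gave r = -0.56 and rho = -0.54 (adjusted permutation p = 0.00162), and -0.42 without those 2 libraries. For miR-128-3p r was -0.27 (adjusted permutation p = 0.0772) and for miR-132-3p -0.17 (adjusted permutation p = 0.603). The library total and its scaling cancel in the index, a difference of 2 log2 CPM values, but not in the levels. The relation was not split into its miR-451a and miR-23a-3p/23b-3p parts, so a tie to red cell lysis alone was not tested. In the month 6 library of PA8912, miR-451a stood at 5506 CPM and miR-23a-3p/23b-3p at 7059 CPM, for an index of -0.36. Months are shuffled as if exchangeable, which libraries of an animal over time need not be. How many of all rows relate to the index as strongly is not given here, so the relation is not shown to be particular to miR-9.

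Other relations set miR-9 and miR-128-3p apart from miR-132-3p. The 2 arms of miR-9 moved together (r = 0.85, rho 0.776, adjusted permutation p = 0.00018, r = 0.80 without the 2 farthest libraries). By rho, miR-139-5p (0.804), miR-26b-5p (0.787) and miR-155-5p (0.782), all outside the set, lay closer to miR-9-5p than its 3p arm did. How many of all rows move with these microRNAs as strongly is not given here, so the relations are not shown to be particular to the set. miR-128-3p followed miR-9-5p with r = 0.61 (rho 0.57, adjusted permutation p = 0.00207, 0.55 without 2) and miR-9-3p with r = 0.59 (rho 0.58, adjusted permutation p = 0.00698, 0.53 without 2). miR-132-3p had r between -0.11 and 0.02 with the other 3, none with an adjusted permutation p under 0.674. Sparse counts limit what such a value can show. miR-128-3p rose with log2 total count (r = 0.49, rho 0.49, adjusted permutation p = 0.0244, 0.44 without 2), and for the miR-9 arms r with total count was 0.29 and 0.32 (adjusted permutation p = 0.185 and 0.165). With the liver microRNA miR-122-5p, r was -0.47 for miR-9-5p (rho -0.40, adjusted permutation p = 0.0244, -0.44 without 2), -0.42 for miR-9-3p (rho -0.33, adjusted permutation p = 0.0589) and -0.42 for miR-128-3p (rho -0.47, adjusted permutation p = 0.0568). The rank correlation put the call elsewhere, with an adjusted permutation p of 0.0624 for miR-9-5p, 0.147 for miR-9-3p and 0.0209 for miR-128-3p.

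**Figure D5:**
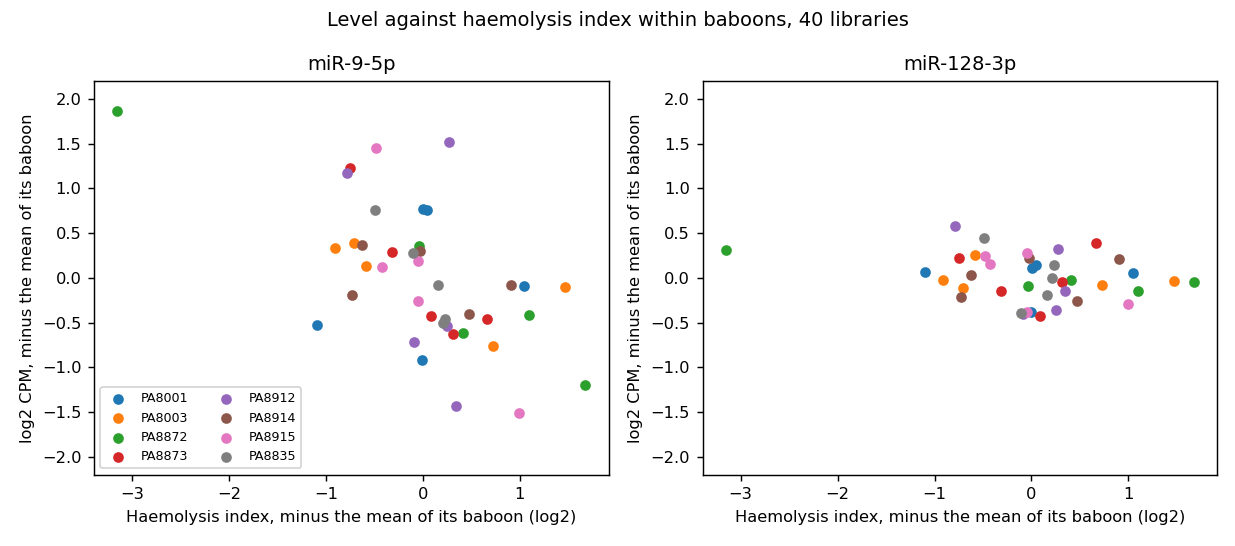
Log2 CPM of miR-9-5p (left) and miR-128-3p (right) against the haemolysis index, both with the mean of the baboon subtracted, 1 point per library and 1 colour per baboon. The points of miR-9-5p slope downward (r = -0.61), and those of miR-128-3p less so (r = -0.27).

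The rows most like each microRNA were found by Spearman correlation over the 40 libraries after each baboon's mean was subtracted, and are given as descriptions. miR-139-5p, known from brain and from blood-forming cells, was first for both arms of miR-9 (rho 0.80 for 5p and 0.82 for 3p). It was followed for the 5p arm by miR-26b-5p (0.79) and miR-155-5p (0.78), a microRNA of activated leukocytes, and for the 3p arm by miR-598-3p (0.81) and miR-155-5p (0.80). The rows nearest to miR-128-3p were miR-425-3p (0.73), miR-598-3p (0.72) and miR-191-5p (0.72), of which miR-425 and miR-191 come from a shared cluster. For miR-132-3p no row exceeded 0.31 (miR-1301-3p, then miR-3154 and miR-5699-3p at 0.31 and 0.29).

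miR-128-3p was the steadiest of the set. Its levels ran from 290 to 646 CPM at month 0 (median 472), 334 to 635 at month 3 (median 499) and 452 to 624 at month 6 (median 550). They were 336 to 558 CPM at month 9 (median 449) and 368 to 685 CPM at month 15 (median 534). The ranges of all months overlap. The SD of its log2 CPM over the 40 libraries was 0.310, against 1.04 for miR-9-5p and 1.07 for miR-9-3p.

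The intervals of miR-128-3p were the narrowest of the 4, but they do not cover the choice of scaling. The log2 change at month 3 was 0.01 (95% interval -0.31 to 0.32), a value that lay below 0 with each of the 3 other scalings. It was 0.23 at month 6 (-0.09 to 0.54), -0.08 at month 9 (-0.40 to 0.24) and 0.17 at month 15 (-0.15 to 0.48), and adjusted p by edgeR was 0.664 or more. With library totals alone as scaling the month 9 value was -0.42 (unadjusted p = 0.0305, adjusted p = 0.550), where the median of all rows was -0.28. Without the month 15 library of PA8872 the month 15 value was 0.04 and the month 15 mean 503 ± 108 CPM (n = 7), against 526 ± 119 CPM with it. Single animals moved in opposite directions. From month 0 to month 15 it went from 348 to 665 CPM in PA8912 and from 646 to 409 CPM in PA8915. The passenger strands that name their hairpin were rare: miR-128-1-5p held 114 counts in 16 libraries and miR-128-2-5p none in any.

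miR-132-3p was counted in most libraries before inoculation and in a changing number after it, a count given without a test. It held counts in 7 of 8 libraries at month 0, 6 at month 3, 3 at month 6, 4 at month 9 and 4 at month 15, with 214 counts in all. At month 0 its range was 0 to 8.90 CPM with a median of 4.13 and a mean of 4.72 ± 3.05 (SD, n = 8), from at most 12 counts in a library. At month 6 the median was 0 and the range 0 to 5.11 CPM, with 41 of its 47 counts in the deepest library, that of PA8912. The medians were 2.40 CPM at month 3, 1.93 at month 9 and 1.51 at month 15, with 0 as the lowest value at each.

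No month passed the test for miR-132-3p. The log2 change at month 6 was -2.34 (SE 1.07, 95% interval -4.51 to -0.16, unadjusted p = 0.0359, adjusted p = 0.990 by edgeR), with the level lower in 7 of 8 baboons and at 0 at both times in PA8835. It was -0.67 at month 3 (SE 1.08), -1.21 at month 9 (95% interval -3.20 to 0.77) and -1.16 at month 15 (SE 0.971). The month 15 value was -1.90 (unadjusted p = 0.0893 by edgeR) without the library of PA8872 from that month. A fitted change of a row with so many zeros depends on how zeros are treated and is a poor measure of size. The row no longer passed the low-count filter when PA8873 or PA8912 was left out, when miR-122-5p was taken out of the table or when only the 2 months compared were fitted.

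The relatives of miR-132-3p and miR-124-3p were rarer still. From the miR-132 and miR-212 transcript, miR-132-5p had 25 counts in 6 libraries, miR-212-3p 18 counts in 5 and miR-212-5p 4 counts in 1. miR-124-3p was counted in 11 of 40 libraries, with 2 to 7 counts in each. It appeared in 2 of 8 libraries at month 0, 2 at month 3, 3 at months 6 and 9 and 1 at month 15. PA8835 had 7, 2 and 3 counts at months 0, 3 and 9 and PA8001 had none in any of its libraries. miR-124-5p had no count in any library. Differences in miR-124-3p between months were not tested.

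A wider list of 33 microRNAs known from brain was read beside the set. They occupy 32 rows, of which 27 had a count and 15 were tested, and 2 of the list, miR-885-5p and miR-7-5p, also stand in the liver and endocrine lists. None of the 15 passed at months 3, 6, 9 or 15, where 10, 10, 8 and 11 lay above 0. Their median log2 changes were 0.06, 0.13, 0.14 and 0.18, beside the 0.08, 0.10, 0.05 and 0.11 of all rows. At month 15, 8 of the 15 lay above 0 when the library of PA8872 was left out, with a median of 0.06. At an unadjusted p under 0.05 edgeR had 1 at month 3 (miR-326-3p), 1 at month 15 (miR-598-3p) and 0 at months 6 and 9. Of all rows, 1.57% lay under that value at month 3, 3.46% at each of months 6 and 9 and 12.6% at month 15.

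Abundance in that list was uneven. miR-139-5p and miR-7-5p had 3527 and 2588 CPM on average, while several microRNAs known from neurons or myelinating glia, though not all restricted to them, were almost missing. miR-218-5p had 60 counts in 4 libraries, miR-153-3p 13 counts in 4 and miR-219a-5p 2 counts in 1. miR-129-5p, with 190 counts in 26 libraries, was also below the filter. miR-137-3p was tested, at 5.37 CPM on average. So were miR-338-3p, with 3858 counts in 40 libraries, miR-138-5p, with 2130 in 39, and miR-219a-1-3p, with 325 in 27.

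The 4 rows of the list with the smallest p over all months did not pass either. miR-598-3p went from 218 ± 149 CPM at month 0 to 463 ± 428 CPM at month 15 (log2 change 0.91, SE 0.405, adjusted p = 0.336 by edgeR). miR-330-3p was counted in 3 of 8 libraries at month 0 and 6 at month 15, at 1.88 ± 2.70 and 4.85 ± 3.76 CPM. miR-326-3p was all or none: 10 libraries held 948 counts and 30 held none, with none at all at month 3. miR-139-5p had 3299 ± 887 CPM at month 0, 2888 ± 1098 at month 9 and 4466 ± 2312 at month 15 (log2 change at month 15 0.39, SE 0.241). Without the month 15 library of PA8872 the month 15 log2 change was 0.71 for miR-598-3p, 1.96 for miR-330-3p and 0.13 for miR-139-5p, with adjusted p of 0.643 or more by edgeR.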

How the data were processed

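The authors deposited whole-number counts for each mature microRNA name, made from small RNA libraries of plasma. Per the labels' protocols, adapters were ligated to both ends of the microRNAs and molecular identifiers were added at cDNA synthesis. No source used here says whether reads or identifiers were counted, or names an aligner or database. R 4.5.0, edgeR and limma are named in the submitters' processing notes. Rows carry human microRNA names and no coordinates.

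Rows were kept with filterByExpr grouped by month (minimum count 10, minimum total 15), which left 318 rows holding 99.98% of the counts. Scaling was by TMM. The test was edgeR's quasi-likelihood F (version 4.0.16, run in R 4.3.3 beside limma 3.58.1), two-sided, with month and baboon as terms. The pairing by baboon comes from the animal numbers in the labels. SE is the log2 change divided by the square root of F. Log2 CPM used a prior count of 2. Named beyond the set were its partner arms, the wider brain list's rows past the threshold or else its 4 with the smallest p over all months, and the 3 rows most like each tested microRNA. The microRNAs, the lists and the tests were chosen with earlier results of these data known. Alternatives covered scaling, filter, test (DESeq2 1.42.0, limma-voom), block, covariates and left-out libraries or animals.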

Additional observations from a re-analysis of the deposited data

Results flagged for a closer look

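One value stood far from the other 7 of its month. In the month 15 library of PA8872 miR-9-3p had a log2 CPM of 9.944, with the next highest baboon at 7.496, a gap of 0.651 of the whole range, above the critical value of Dixon's test for 8 samples. In all, 35 groups of 8 were looked at in this way (4 microRNAs, the arm ratio, the haemolysis index and log2 total count at 5 months), and chance flags about 1 in 20. The same library had the lowest haemolysis index of the 40, and the part of that measure in its miR-9 level was not tested.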

How the results depend on the processing

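Under all alternatives of the 6 comparisons planned, 0 of the neural microRNAs passed. For month 15 against month 9, which was added after the values were seen, 1 (miR-9-5p) passed with library totals alone, 1 with no low-count filter and 1 with DESeq2. Over all rows of that comparison 4 passed in the fit reported and 0 to 13 under its 20 alternatives, with 13 for library totals alone. Over all rows at month 15, 13 passed in the fit reported, 0 to 20 under its 21 alternatives and 2 with no replicate block. Leaving the block out changed no call for the neural microRNAs, and its log2 change for miR-9-5p at month 15 was 1.18.

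The values below changed sign under the settings named. At month 3, miR-9-3p had -0.066 when scaled by DESeq2 size factors, -0.0066 by upper quartiles, -0.17 with library totals alone, -0.066 with DESeq2, -0.044 and -0.23 with haemolysis index and log2 total count as covariates, -0.0077 with miR-122-5p taken out, -0.017 without the month 15 library of PA8872, -0.15 with only 2 months fitted, and -0.19 to 0.11 without single baboons. At month 3, miR-128-3p had, in that order of settings, -0.075, -0.079, -0.18, -0.075, -0.0066, -0.073, -0.037, -0.067, -0.072 and -0.098 to 0.060, with -0.027 without the filter and -0.00042 with no replicate block. For late against early, miR-9-3p had 0.072 with no replicate block and miR-132-3p -0.063 without the month 15 library of PA8872. Without single baboons the log2 change was -0.17 to 0.47 for miR-9-3p at month 6 and -0.0018 to 0.28 for miR-128-3p at month 15. For late against early it was -0.41 to 0.0031 for miR-9-5p, -0.28 to 0.11 for miR-9-3p and -0.018 to 0.65 for miR-132-3p. The miR-9 arm ratio at month 9 moved from -0.095 to 0.19, and the haemolysis index from -0.35 to 0.047 at month 3, -0.37 to 0.041 at month 6 and -0.24 to 0.29 at month 9. The cause of these turns was not tested. The low counts of miR-132-3p left it below the filter in 4 of the settings, and miR-124-3p was not tested.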
